A study of Mus musculus with 8 samples.

Results

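Fast-twitch skeletal muscle fibres contract by sliding thin filaments of actin past thick filaments of myosin inside the sarcomere, the repeating unit bounded by Z-discs. Adult mouse fibres are typed by the myosin heavy chain they carry, with IIa, IIx and IIb in fast fibres and type I in slow ones. Fast and slow fibres differ in their light chains and troponins. Mature fibre transcripts belong to the fibre and not to the endothelium of the capillaries beside it. The genes described here are 10 of the 54532 genes in the count table, chosen by name: *Acta1* (skeletal α-actin) and *Tnnt3* (fast troponin T) of the thin filament, *Actn3* (α-actinin-3) and *Myoz1* (a myozenin) of the Z-disc, *Myh2*, *Myh1* and *Myh4* (myosin heavy chains IIa, IIx and IIb) and *Mylpf* (the fast regulatory light chain) of the thick filament, *Myom1* (myomesin 1) of the M-band, and *Ckm* (muscle creatine kinase, which regenerates ATP at the sarcomere). *Acta1*, *Ckm* and *Myom1* are known from other striated muscle as well, so not every gene of the list is exclusive to fast fibres. The choice was made with earlier results of these data known. A share of the list set beside that of all genes is therefore a description and not a test.

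Their levels were read in 8 libraries of GFP+ cells sorted by FACS from female mice aged 8 months. WT libraries were of strain Tie2e-cre; TERT+/+; mTmG and KO libraries, EC-*Tert*-KO, of strain Tie2e-cre; TERTfl/fl; mTmG, so that both genotypes carried the Cre and the reporter. Cre driven by the Tie2e promoter switches the reporter from membrane Tomato to membrane GFP (mG) and, in the KO, deletes *Tert*, the telomerase reverse transcriptase. The libraries form 4 pairs of 1 WT and 1 KO library: subcutaneous adipose tissue (SAT) of mice on a high fat diet (HFD), and SAT, visceral adipose tissue (VAT) and gastrocnemius skeletal muscle of mice on chow. No pair holds a replicate, with 1 library per group, and whether a library pools several mice was not given in the sources used here. In bulk RNA, fewer cells of a type and less RNA per cell cannot be told apart.

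Library totals were 6214269 to 18855772 counts, with 16034 to 24688 genes detected. The floor of 3 counts lay between 0.184 and 0.434 CPM, which is counts scaled to a library of 1000000 after TMM scaling of the libraries. The *Tert* counts, as a check of the labels, were 114 in WT and 0 in KO for HFD SAT, 70 and 11 for chow SAT, 24 and 7 for muscle, but 3 and 9 for VAT. The direction of *Tert* in VAT was thus opposite to its labels, while muscle and both SAT pairs went with theirs. The VAT direction rests on 3 and 9 counts, the WT count being at the floor, and has no interval here. Whether the VAT labels were exchanged was not tested, and these libraries are called here by the genotype they are labelled with. The WT library of HFD SAT was the shallowest, and 9.72% of its counts fell on *Gm26917*, against 0.195% to 1.07% elsewhere. All 12 endothelial markers were detected in each of the 8 libraries, with a summed level of 291 to 2370 CPM. Markers of other cells summed higher in some libraries. The neutrophil markers reached 26210 and 30200 CPM in WT and KO muscle, and the macrophage markers 8061 and 7961 CPM in VAT. In HFD SAT the fibroblast sums were 2059 and 2129 CPM beside endothelial sums of 291 and 339. The purity of the sort was not tested.

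The promoters of the IIa, IIx and IIb genes are shown because these genes are neighbours on chromosome 11 with closely related sequences, and that of *Acta1* because it had the highest count of the list in any library. RefSeq promoters (GRCm38.p6) were found for 7 of the 10 genes, and for *Actn3*, *Myoz1* and *Tnnt3* none is shown. Each sequence holds the 250 bases before the RefSeq start, read in the direction of the gene, and for *Myh1* the end of it lies inside the gene as the count table places it. In the myosin promoters, at chr11:67170777-67171026 for *Myh2*, chr11:67199852-67200101 for *Myh1* and chr11:67237562-67237811 for *Myh4*, all on the plus strand, the capitals mark a run of 20 bases common to all 3. In the *Acta1* promoter, at chr8:123894776-123895025 on the minus strand, the capitals mark the E-boxes (CANNTG) and the CArG box, the motifs known as binding sites of myogenic bHLH factors and of serum response factor.
Myh2: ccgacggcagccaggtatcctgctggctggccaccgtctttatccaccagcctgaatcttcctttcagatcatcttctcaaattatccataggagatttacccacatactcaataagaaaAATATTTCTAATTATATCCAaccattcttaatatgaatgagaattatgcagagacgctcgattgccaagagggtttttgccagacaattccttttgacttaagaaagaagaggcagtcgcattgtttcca
Myh1: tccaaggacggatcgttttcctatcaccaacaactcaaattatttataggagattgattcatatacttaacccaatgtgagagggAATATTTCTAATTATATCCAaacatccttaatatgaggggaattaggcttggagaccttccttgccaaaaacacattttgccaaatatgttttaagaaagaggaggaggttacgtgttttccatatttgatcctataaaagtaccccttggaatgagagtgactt
Myh4: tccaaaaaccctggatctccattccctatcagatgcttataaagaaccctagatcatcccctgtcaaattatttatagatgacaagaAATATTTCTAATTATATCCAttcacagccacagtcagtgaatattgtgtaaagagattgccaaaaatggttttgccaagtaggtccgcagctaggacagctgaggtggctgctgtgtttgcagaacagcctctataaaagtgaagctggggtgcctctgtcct
Acta1: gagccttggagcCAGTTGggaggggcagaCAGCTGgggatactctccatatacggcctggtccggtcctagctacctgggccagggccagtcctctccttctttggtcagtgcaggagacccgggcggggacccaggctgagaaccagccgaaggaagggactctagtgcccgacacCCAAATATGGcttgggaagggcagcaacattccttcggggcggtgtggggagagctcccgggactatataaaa

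The run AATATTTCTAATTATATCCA begins 130 bases before the start in *Myh2*, 165 in *Myh1* and 163 in *Myh4*, and these were the only 3 of 32841 RefSeq promoters that hold it (0.00913%). Searched on both strands over the same 250 bases, an E-box was found in 5 of the 7 promoters and in 66.2% of all promoters. A CArG box was found in 3 (*Acta1*, *Myh4* and *Myom1*), against 1.47% of all promoters, and a MEF2 site in 2 (*Myh1* and *Myh4*), against 2.92%. The CArG and MEF2 motifs are rich in A and T and can share letters with other matches in these promoters, and a match is a description of the letters only. The likeness of the myosin genes extends into their transcripts. Of all stretches of 50 bases, 25.4% in *Myh1*, 22.9% in *Myh2* and 18.9% in *Myh4* also occur in another gene, falling to 9.24%, 7.80% and 3.85% for stretches of 100 bases, so that the split of short reads among these genes is uncertain. The same share was 2.02% for *Acta1*, with *Actb* and pseudogenes, and at most 0.0701% for the other 6 genes.

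The actin of the thin filament separated the genotypes. *Acta1* (chromosome 8, 123891769 to 123894751, minus strand, GRCm38) had 87 counts in the WT and 17 in the KO library of HFD SAT, 249 and 42 in chow SAT, 813 and 16 in VAT, and 185 and 52 in muscle. All 4 WT libraries lay above all 4 KO libraries, between 11.4 and 90.3 CPM against 1.17 to 3.83 CPM, an order seen for 0.265% of the 16971 genes tested. The ratio within a pair was smallest in muscle, 2.96-fold lower in KO (log2 −1.56, counting interval −2.04 to −1.12), and widest in VAT, 77.2-fold lower (log2 −6.22, −7.08 to −5.56), a direction that rests on the VAT labels and would be turned, to 77.2-fold higher in KO, were they exchanged. These intervals are exact conditional 95% intervals and, like all intervals given here, cover counting error only. Troponin T, which anchors the calcium-sensing troponin complex to tropomyosin, followed another order. *Tnnt3* (chromosome 7, 142498836 to 142516009) had 90 and 42 counts in WT and KO of HFD SAT, 52 and 124 in chow SAT, 119 and 77 in VAT, and 67 and 42 in muscle. The genotypes overlapped, with KO lower in 3 pairs and higher in chow SAT, where the log2 ratio of 1.25 had an interval of 0.78 to 1.75. *Tnnt3* overlaps *Prr33* on the opposite strand, which had 82 to 184 counts, and the use of strand in the counting is not given in the sources used here.

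The 2 Z-disc genes were at or near 0 in most KO libraries. *Actn3* (chromosome 19, 4861223 to 4877909) had 139 counts in WT and 0 in KO of HFD SAT, 51 and 17 in chow SAT, 94 and 0 in VAT, and 95 and 6 in muscle. WT lay at 3.16 to 20.1 CPM and KO at 0 to 1.05 CPM, with no overlap. Against the floor of 3 counts per library, *Actn3* was at least 86.8-fold lower in KO for HFD SAT and at least 47.6-fold lower for VAT, while the muscle pair gave 13.2-fold (log2 −3.62, −5.20 to −2.55) and chow SAT 2.99-fold (−1.55, −2.47 to −0.77). Such bounds take the WT count as exact. The upper ends of the log2 counting intervals, −6.12 for HFD SAT and −5.25 for VAT, were weaker than the bounds. Counts of 0 were not equally common in the pairs. Among genes with 60 to 200 counts in the WT library, 1.93% were at 0 in the KO library of HFD SAT, but 0.137% in VAT, 0.0972% in muscle and 0.0365% in chow SAT. In the other direction, of genes with 60 to 200 counts in KO, 7.75% were at 0 in the WT library of HFD SAT, 2.88% in chow SAT, 0.212% in VAT and 0.0302% in muscle. *Myoz1* (chromosome 14, 20649107 to 20656540), whose protein tethers calcineurin at the Z-disc, had 8 and 0, 8 and 1, 11 and 0, and 21 and 0 counts in WT and KO of HFD SAT, chow SAT, VAT and muscle. Its WT libraries also lay above all KO libraries, although from 8 to 21 counts only. With the WT count taken as exact, the bounds were 4.99-fold, 5.57-fold and 5.83-fold lower in KO for HFD SAT, VAT and muscle. The upper ends of the log2 counting intervals were weaker, at −1.68, −1.93 and −2.12. The chow SAT ratio of 7.98-fold rested on 1 count (log2 −2.50, −8.47 to −0.10).

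*Ckm* (chromosome 7, 19404776 to 19422841) had 60 counts in WT and 0 in KO of HFD SAT, 75 and 9 in chow SAT, 88 and 1 in VAT, and 26 and 7 in muscle. All WT libraries were above all KO libraries here too, at 1.60 to 9.77 CPM against 0 to 0.558 CPM. The KO library was at least 37.4-fold lower in HFD SAT by the bound (upper end of the log2 counting interval −4.88). It was 8.32-fold lower in chow SAT (log2 −2.99, −4.24 to −2.05) and 3.09-fold lower in muscle (−1.57, −3.08 to −0.39). In VAT, with 1 count in KO, the ratio was 134-fold, with a log2 interval of −12.38 to −4.55. The antisense gene *A930016O22Rik*, which overlaps *Ckm*, had 0 to 55 counts.

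**Figure D1:**
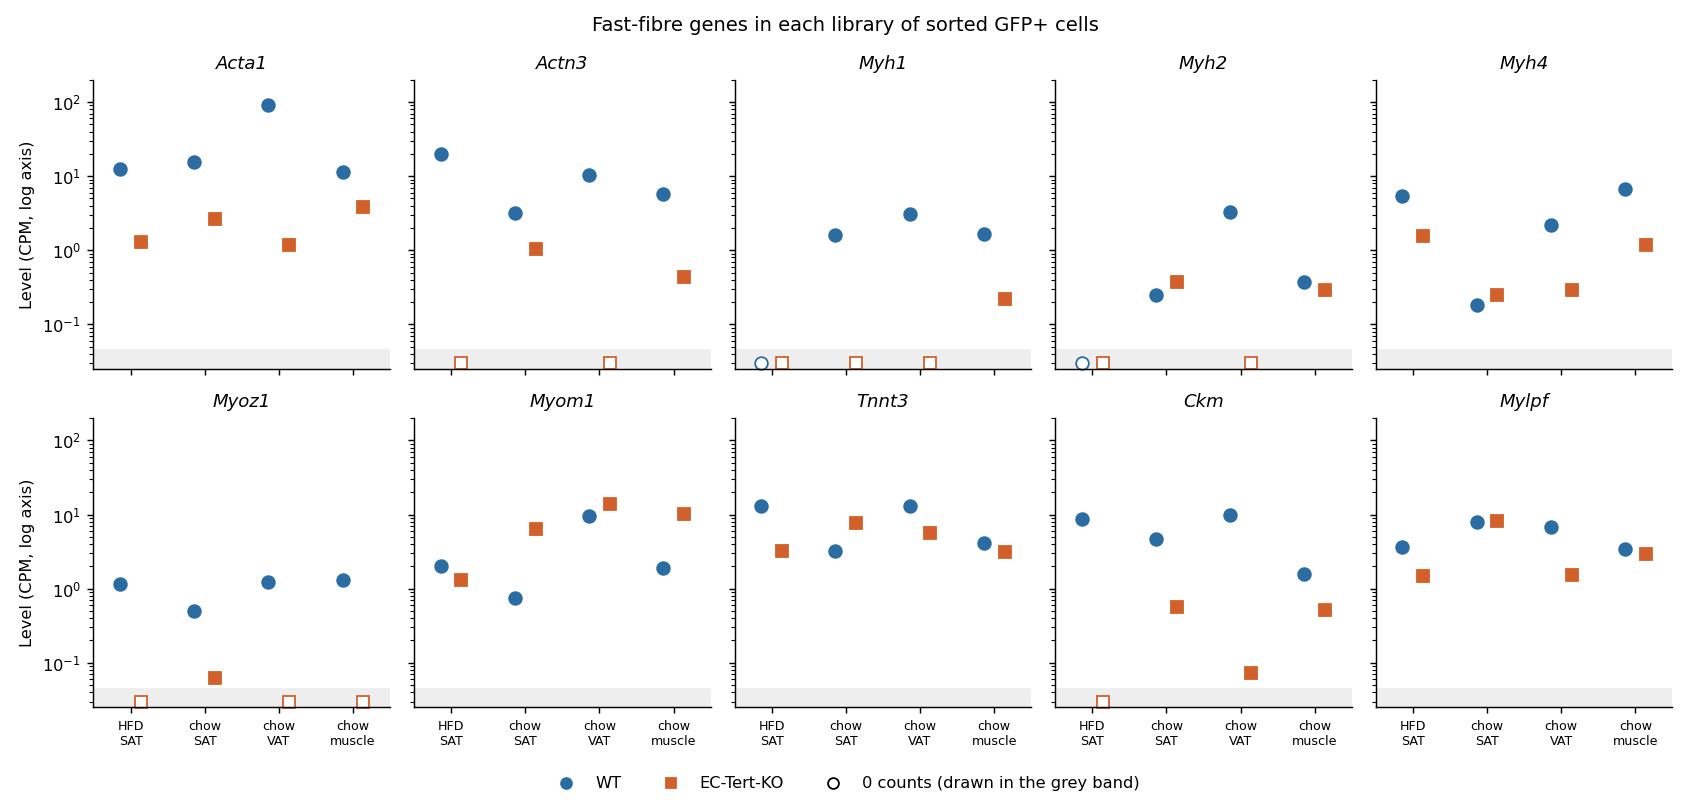
Level of each gene in each library, in CPM on a log axis, for the 4 pairs of HFD SAT, chow SAT, VAT and muscle (circles WT, squares EC-*Tert*-KO, 1 library each; open symbols in the grey band are libraries with 0 counts). *Acta1*, *Actn3*, *Myoz1* and *Ckm* have every WT library above every KO library, whereas *Myom1* is higher in KO in 3 of 4 pairs.

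Among the motor proteins, the mix of fast myosins differed between libraries. *Myh4* (IIb; chromosome 11, 67238029 to 67260446) had 37 and 20 counts in WT and KO of HFD SAT, 3 and 4 in chow SAT, 20 and 4 in VAT, and 111 and 16 in muscle. *Myh1* (IIx; 67200052 to 67224575) was at 0 in both libraries of HFD SAT and had 26 and 0 counts in chow SAT, 28 and 0 in VAT, and 27 and 3 in muscle. *Myh2* (IIa; 67171027 to 67197517) was likewise at 0 in both libraries of HFD SAT, with 4 and 6 counts in chow SAT, 30 and 0 in VAT, and 6 and 4 in muscle. In each gene the genotypes overlapped. *Myh4* was lower in KO by 3.46-fold in HFD SAT, 7.60-fold in VAT and 5.78-fold in muscle (log2 −2.50, −3.39 to −1.77). In chow SAT its ratio, on 3 and 4 counts, had an interval that includes 0 (log2 0.37, −2.15 to 3.19). *Myh1* was lower by bounds of at least 8.65-fold in chow SAT and at least 14.2-fold in VAT, with upper ends of the log2 counting intervals at −2.71 and −3.43. In muscle it was lower by 7.50-fold on 3 KO counts (log2 −2.73, −5.27 to −1.21). For *Myh2*, VAT gave a bound of at least 15.2-fold lower in KO (upper end of the log2 counting interval −3.54). Its ratios in chow SAT (log2 0.53, −1.49 to 2.86) and muscle (−0.29, −2.59 to 1.76) had intervals that include 0.

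Taken as shares of the counts on the 3 genes, the IIb gene held 77.1% in the WT muscle library (Clopper-Pearson 95% interval 69.3% to 83.7%, 144 counts) and 69.6% in the KO muscle library (47.1% to 86.8%, 23 counts). The muscle shares therefore overlapped within counting error. Gastrocnemius is known as a muscle rich in IIb fibres. In the VAT library labelled WT, the share of *Myh4* was 25.6% (16.4% to 36.8%, 78 counts), with 38.5% on *Myh2* and 35.9% on *Myh1*. In WT chow SAT 78.8% (61.1% to 91.0%, 33 counts) fell on *Myh1*, and in HFD SAT all 37 WT and 20 KO counts fell on *Myh4*, where a count of 0 allows a share of up to 9.49% and 16.8% for either of the other two. In WT HFD SAT the interval of the *Myh4* share was 90.5% to 100%. The myosin mix of each WT adipose library thus differed from WT muscle by more than the binomial counting error, with the above reservation on shared reads. For HFD SAT this rests on 37 counts in the shallowest library. There, 7.75% of genes with 60 to 200 counts in KO were at 0, so that its interval may be too narrow. How far this holds between mice was not tested, with 1 library of each kind.

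**Figure D2:**
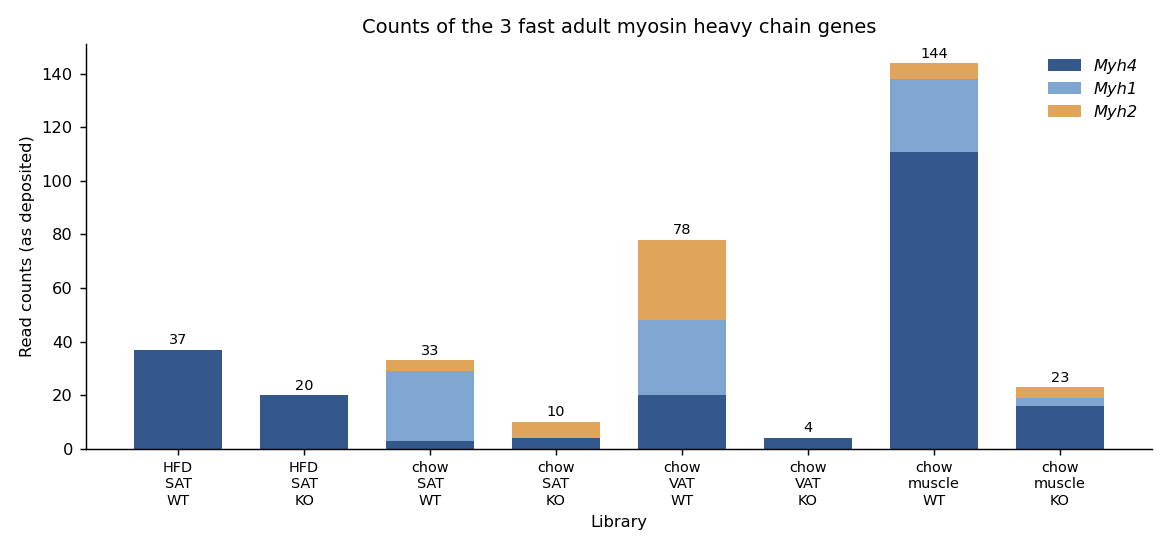
Read counts, as deposited, of *Myh4*, *Myh1* and *Myh2* in each of the 8 libraries, stacked, with the sum of the 3 above each bar. WT muscle has 144 counts, mostly *Myh4*, whereas the VAT library labelled WT has 78 counts spread over the 3 genes, and each KO sum is below its WT sum.

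*Mylpf* (chromosome 7, 127208890 to 127214298), the light chain that stiffens the myosin lever arm, had 25 and 19 counts in WT and KO of HFD SAT, 127 and 130 in chow SAT, 62 and 21 in VAT, and 56 and 40 in muscle. The genotypes overlapped and the highest library was KO. Its level was lower in KO in HFD SAT (log2 −1.27, −2.24 to −0.38) and VAT (−2.13, −2.95 to −1.43), while the intervals in chow SAT (0.04, −0.33 to 0.40) and muscle (−0.22, −0.84 to 0.39) included 0.

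*Myom1* (chromosome 17, 71002633 to 71126856), which crosslinks myosin filaments at the M-band, ran the other way. It had 14 and 17 counts in WT and KO of HFD SAT, 12 and 104 in chow SAT, 86 and 187 in VAT, and 31 and 138 in muscle. KO was higher in the 3 chow pairs, by 8.68-fold in SAT (log2 3.07, 2.25 to 4.12), 1.43-fold in VAT (0.52, 0.14 to 0.90) and 5.34-fold in muscle (2.40, 1.85 to 3.03), and the interval in HFD SAT (−0.61, −1.73 to 0.51) included 0. The groups overlapped, since the VAT library labelled WT lay above 2 of the KO libraries. The start of *Myom1* overlaps *Myl12a* on the opposite strand, a gene with 700 to 3506 counts per library. The part of *Myl12a* reads in the *Myom1* counts was not tested.

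The plot of ratios within pairs shows how the genes stood together. Among genes that averaged 10 counts or more in a pair, KO was at least 2-fold lower for 6 of 7 in HFD SAT, where 16.3% of the 15839 genes tested were, 4 of 7 in chow SAT (19.1% of 16908), 8 of 9 in VAT (6.81% of 16439) and 6 of 9 in muscle (6.15% of 16967). Low counts spread ratios, and among genes within the members' range of mean counts the shares were 32.7%, 18.7%, 9.11% and 12.3%. At least 2-fold higher in KO were 0, 2 (*Myom1* and *Tnnt3*), 0 and 1 (*Myom1*), against 18.1%, 26.1%, 8.21% and 8.76% of genes. The genes counted are those that passed the minimum, which left out *Myh1*, *Myh2* and *Myoz1* in HFD SAT, *Myh2*, *Myh4* and *Myoz1* in chow SAT, *Myoz1* in VAT and *Myh2* in muscle. A gene at or near 0 in KO passed through its WT counts alone, such as *Myh1* in chow SAT (26 and 0) or *Myoz1* in muscle (21 and 0). Its lower level in KO was then fixed by how it entered. All genes in the shares met the same minimum. Since the list was chosen with earlier results of these data known, its shares are a description only.

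The median log2 ratio of those genes was −1.99 in HFD SAT, −1.55 in chow SAT, −6.16 in VAT and −1.57 in muscle, against medians of all genes between 0.00 and 0.06. These medians include genes at or near 0 in KO, which passed the minimum through the WT library alone. With genes at 0 set to their bounds the VAT median was −3.83 and the other medians were as given. The chow SAT median depended on the genes of few counts, since over the 4 genes that averaged 50 counts or more it was 0.64. In VAT it was −1.23 and in HFD SAT −3.21 over the 3 genes that met that minimum in each. Over all genes with at least 1 count, the chow SAT median was −0.76. Summed over all 10 genes, the level was 66.5 CPM in WT and 8.88 CPM in KO of HFD SAT, 37.6 and 27.1 in chow SAT, 150.0 and 22.4 in VAT, and 38.4 and 22.7 in muscle. Each KO sum was below its WT sum, by 7.49-fold, 1.39-fold, 6.71-fold and 1.69-fold. In the VAT library labelled WT, 60.2% of the summed counts were *Acta1*, and in the one labelled KO 61.1% were *Myom1*.

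**Figure D3:**
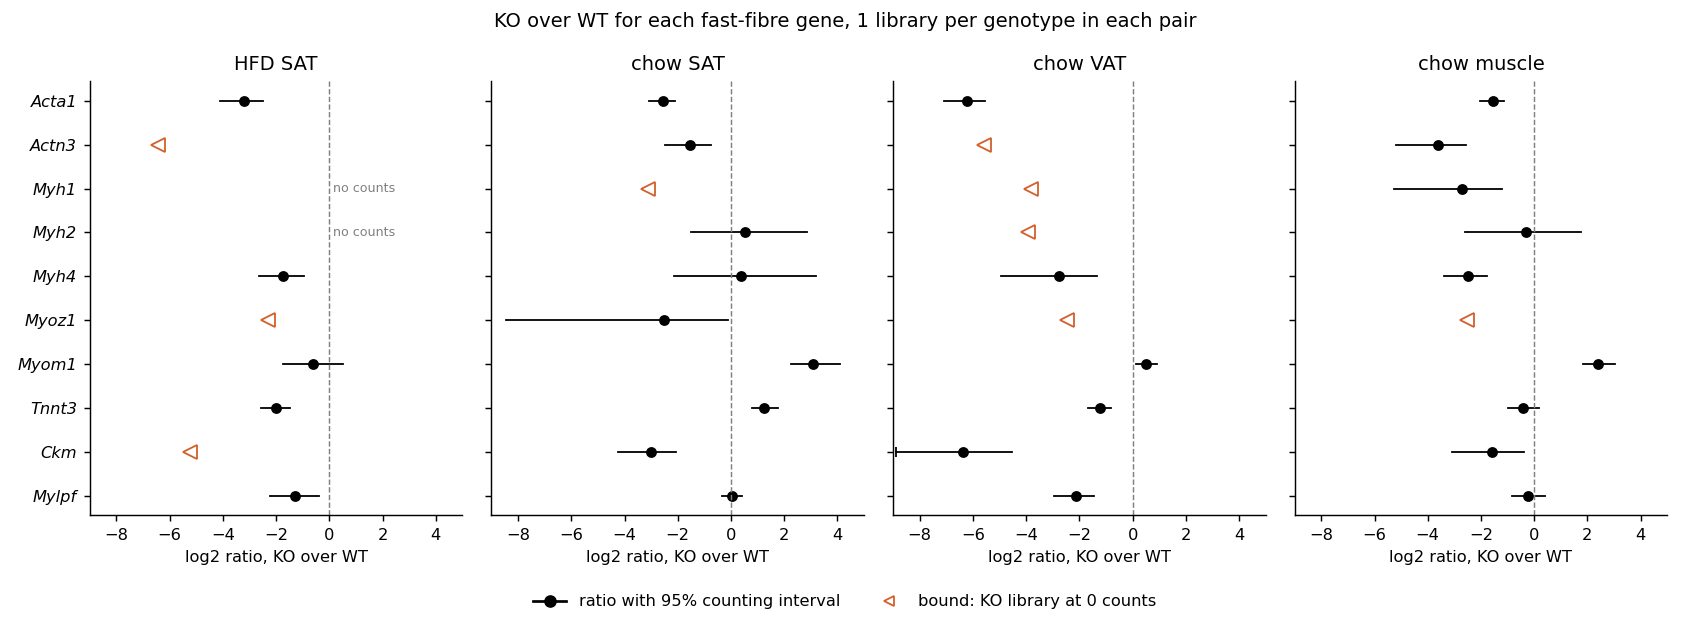
log2 ratio of KO to WT for each gene in the 4 pairs, with its 95% counting interval (points and lines), or the bound against 3 counts where the KO library had 0 counts (open triangles); the interval of *Ckm* in VAT runs past the left edge. Most points lie to the left of 0, *Myom1* lies to the right in the 3 chow pairs, and *Tnnt3* changes side in chow SAT.

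A test with replication was possible across the 4 pairs only, with the pair as a block. It asked whether a common log2 fold change of KO over WT, fitted over all 4 pairs, differed from 0. It did not ask whether every pair had the same direction. Of the 10 genes, 8 averaged 10 counts or more over the libraries and entered edgeR's quasi-likelihood test, and 0 of them passed an adjusted p of 0.05, where 0.00589% of the 16971 genes tested did (1 gene). At an unadjusted p under 0.05 there were 4 (1.63% of all genes). These were *Acta1* (log2 fold change −3.26, SE 0.75), *Actn3* (−5.14, SE 1.61), *Ckm* (−4.54, SE 1.52) and *Myh1* (−5.11, SE 2.04), each with an adjusted p of 0.9996 (Benjamini-Hochberg). The fitted values of *Actn3*, *Ckm* and *Myh1* depend on the prior count, because some of their KO libraries were at 0. *Myh1* met the minimum of 10 counts through its WT libraries, so that its lower level in KO was fixed by how it entered. DESeq2's Wald test on the same genes called 3, *Acta1* (adjusted p = 0.00432), *Actn3* (0.00839) and *Ckm* (0.0446), where it called 0.112% of genes. edgeR without the minimum of 10 counts called 2, *Acta1* (adjusted p = 9.91e-08) and *Actn3* (0.00133), and 0.142% of 29627 genes. The call thus depended on the tool and on the filter, and the edgeR values with the filter are the main ones here.

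The remaining fitted values were −1.81 (SE 1.07) for *Myh4*, −0.89 (SE 0.71) for *Mylpf*, −0.62 (SE 0.68) for *Tnnt3* and 1.38 (SE 0.81) for *Myom1*. The median of the 8 was −2.53, beside 0.03 over all genes tested. Without the VAT pair, whose few *Tert* counts went against the labels, the log2 fold change was −2.43 for *Acta1*, −4.11 for *Actn3* and −3.69 for *Ckm*. Without the HFD SAT pair, with its shallow WT library, it was −3.26, −3.89 and −3.51. In edgeR without the VAT pair, the unadjusted p was 0.0098 for *Acta1*, 0.037 for *Actn3* and 0.093 for *Ckm*, and *Myh1* was not tested. *Myoz1*, at a mean under 10 counts, was outside the test although its groups did not overlap. In the tested set, all 4 KO libraries lay below all 4 WT libraries for 3 of 8 genes (*Acta1*, *Actn3* and *Ckm*), beside the 0.265% of all genes tested given above. Without the VAT libraries the count was 3 of 8 again, for the same genes, beside 2.67% of all genes tested. With the VAT labels exchanged none of these 3 would separate. The same 3 genes were lower in KO in each of the 4 pairs, which was so for 4.31% of all genes. These shares describe a list chosen with earlier results of these data known, and are not a test of it.

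**Figure D4:**
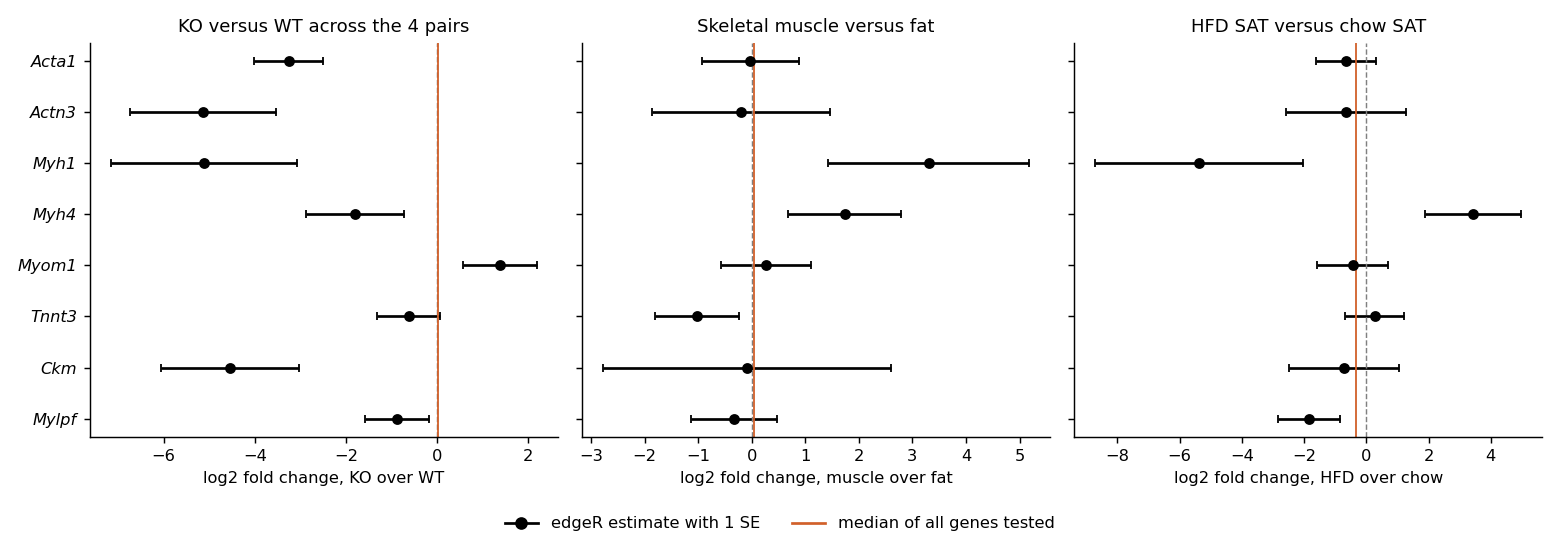
Fitted log2 fold change of the 8 genes tested, with 1 SE, for KO over WT across the 4 pairs, muscle over fat, and HFD over chow in SAT (edgeR; the vertical line is the median of all genes tested). *Acta1*, *Actn3*, *Ckm* and *Myh1* lie farthest below 0 in the genotype panel, and in the tissue panel the estimates lie on both sides of 0.

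The second question was whether cells sorted from muscle carried more of these transcripts than cells sorted from fat. For no gene did both muscle libraries lie above all 6 fat libraries, as they did for 8.46% of all genes tested, and for none did both lie below, as for 3.29%, and the ranges of muscle and fat overlapped for all 10. The highest library was VAT labelled WT for 5 genes (*Acta1*, *Myh1*, *Myh2*, *Tnnt3* and *Ckm*), WT muscle for 2 (*Myh4* and *Myoz1*), WT HFD SAT for *Actn3*, KO chow SAT for *Mylpf* and VAT labelled KO for *Myom1*. Among WT libraries, all 3 fat libraries were above muscle for *Acta1*, *Mylpf* and *Ckm*. In edgeR's contrast of muscle with the mean of the 3 fat pairs, 0 of 8 genes passed an adjusted p of 0.05 and 0 had an unadjusted p under 0.05, where 3.67% and 13.8% of all genes did. DESeq2's Wald test gave 7 of them an adjusted p and called 0. The estimates ran from −1.03 (SE 0.78) for *Tnnt3* to 3.30 (SE 1.88) for *Myh1*, with −0.02 (SE 0.91) for *Acta1*, −0.20 (SE 1.67) for *Actn3* and 1.74 (SE 1.05) for *Myh4*. The *Myh1* estimate was 1.18 without the HFD SAT pair, where its counts were 0, and 1.38 with chow fat only, and that of *Myh4* was 0.81 without the chow SAT pair. Standard errors of this size leave changes of several fold in either direction undetected at this depth and number of libraries.

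Set per kilobase of the gene length in the table, which allows genes to be compared, the level of *Acta1* in the VAT library labelled WT was 58.8 CPM per kb. Next in that library were *Tnnt3* at 8.35, *Mylpf* at 6.48, *Actn3* at 3.61 and *Ckm* at 3.35 CPM per kb, and the myosin heavy chains were at 0.369 to 0.489. In WT muscle, *Acta1* stood at 7.39, *Mylpf* at 3.24, *Tnnt3* at 2.60, *Actn3* at 2.02 and *Myh4* at 1.13 CPM per kb. The gap between *Mylpf* and *Tnnt3* there rested on 56 and 67 counts. Within muscle no gene of the list was among the abundant transcripts of the library. In WT muscle 41.3% of the detected genes had a higher CPM than *Acta1*, and 47.5% were above *Myh4*. In the VAT library labelled WT, 11.6% were above *Acta1*.

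The diets were compared in SAT only. In edgeR's contrast of HFD with chow, 0 of 8 genes passed an adjusted p of 0.05 and 0 had an unadjusted p under 0.05, where 0.0% and 9.29% of all genes did. DESeq2's Wald test gave 7 of them an adjusted p and called 0. The largest estimates were 3.42 (SE 1.55, adjusted p = 0.556) for *Myh4* and −5.37 (SE 3.33, adjusted p = 0.663) for *Myh1*, the latter with both HFD libraries at 0 counts. In SAT, *Myh4* had 37 and 20 counts on HFD against 3 and 4 on chow, and *Myh1* had 26 counts in the WT chow library only.

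Other genes of the muscle fibre were read from fixed lists. Of 7 other fast-fibre genes, 5 were tested and 0 passed an adjusted p of 0.05 for genotype in edgeR, all 5 with estimates below 0 (median −1.19). *Atp2a1*, the calcium pump of the fast sarcoplasmic reticulum, had 44 and 51 counts in WT and KO of HFD SAT, 80 and 50 in chow SAT, 181 and 24 in VAT, and 111 and 78 in muscle, and was lower in KO after scaling in all 4 pairs (log2 fold change −1.19, SE 0.71). *Tnni2*, the fast troponin I, had an estimate of −0.87 (SE 0.82), and *Mybpc2*, the fast myosin-binding protein C, of −0.97 (SE 1.05).

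The genes of all striated fibres had estimates on both sides of 0. Of 15 such genes 9 were tested, 0 passed, and 4 estimates lay below and 5 above 0 (median 0.14), among them *Ttn*, the giant spring of the sarcomere, at −0.13 (SE 0.80) and *Neb*, the ruler of the thin filament, at 0.66 (SE 0.67). Their summed level was 70.4 and 65.1 CPM in WT and KO of HFD SAT, 26.2 and 66.3 in chow SAT, 78.05 and 25.1 in VAT, and 36.8 and 34.8 in muscle, lower in KO in 3 of the 4 pairs. The difference between this list and the fast-fibre genes was not tested. Of 10 slow-fibre genes 5 were tested and 0 passed (median −0.51), with 4 estimates below 0, and *Tnnt1*, the slow troponin T and counterpart of *Tnnt3*, at −0.51 (SE 0.94). Of 11 genes of excitation-contraction coupling 4 were tested and 0 passed (median 0.93), with *Ryr1*, the calcium release channel, at −0.03 (SE 0.37). *Jph2*, a junctophilin, had 0 and 47, 7 and 34, 17 and 100, and 21 and 83 counts in WT and KO of HFD SAT, chow SAT, VAT and muscle (log2 fold change 2.80, SE 1.10, adjusted p = 0.9996). Of 12 genes of fibre energy metabolism 9 were tested and 0 passed (median −0.29), with 6 estimates below 0, and *Eno3*, the muscle enolase, at −0.48 (SE 0.30). Both developmental myosins, *Myh3* and *Myh8*, had at most 9 counts in any library and were not tested.

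The genes differed in how closely they followed the mean profile of the list over the 8 libraries. The Pearson correlation of a gene's log2 CPM with the mean of the 10, which includes the gene itself, was 0.97 for *Acta1*, 0.93 for *Ckm*, 0.93 for *Actn3*, 0.75 for *Myh1* and 0.71 for *Mylpf*, then 0.52 for *Tnnt3*, 0.44 for *Myh4* and −0.05 for *Myom1*. Outside the list, the 10 genes with the highest correlation over the 8 libraries were *Rpl35a-ps3* (0.90), *Pvalb* (0.90), *Tmem267*, *Gm26698*, *Cnbd2*, *Atp2a1*, *Slc5a11*, *Gm38218*, *Gm44126* and *Pgam2* (0.84). *Pvalb*, parvalbumin, is the calcium buffer of fast fibres, and *Pgam2* is the muscle phosphoglycerate mutase. *Pvalb* had 44 and 0 counts in WT and KO of HFD SAT, 8 and 5 in chow SAT, 26 and 0 in VAT, and 25 and 8 in muscle, in each pair lower in KO. These correlations describe 8 points that share depth and genotype.

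Markers of other cells moved with genotype and tissue as well. The 10 satellite cell and myogenic factor genes, which mark the stem cells of muscle and their progeny, summed to 0 CPM in both libraries of HFD SAT, 2.79 in WT and 0.992 in KO of chow SAT, 10.3 and 0.438 in VAT, and 56.8 and 9.88 in muscle. *Pax7*, their defining transcription factor, had 283 counts in WT muscle and 16 in KO muscle, 20 and 0 in chow SAT, 18 and 0 in VAT, and 0 in both libraries of HFD SAT. In HFD SAT, the pair with the most genes at 0, all 10 were at 0 in both libraries and the fast-fibre sum was 7.49-fold lower in KO. In the other pairs both sums were lower in KO. Of the satellite cell list 5 genes were tested for genotype and 0 passed, with 2 at an unadjusted p under 0.05 (median −3.55).

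The slow-fibre sum was 6.07 and 3.94 CPM, 7.18 and 3.60, 16.3 and 6.80, and 14.5 and 13.7 in WT and KO of HFD SAT, chow SAT, VAT and muscle, each time lower in KO. In the opposite direction, the 7 smooth muscle markers summed to 46.4 to 86.1 CPM in WT and 51.4 to 288.8 in KO, and the 8 fibroblast markers to 696 to 2059 in WT and 1379 to 3392 in KO, both higher in KO in all 4 pairs. The 8 pericyte markers summed to 43.5 to 139.4 CPM in WT and 127 to 526 in KO. Their sum was higher in KO in each chow pair, but not in HFD SAT (128.4 in WT and 126.7 in KO). The summed level of the 8 macrophage markers was lower in KO in all 4 pairs, though in VAT by little (8061 and 7961 CPM), and 3 of the 8 genes were themselves lower in each pair. The cardiac sum was lower in KO in 3 pairs, with *Myh6* and *Myl7* at 0 in all libraries. Of the endothelial markers 10 of 12, and of the neutrophil markers 9 of 9, passed the edgeR test as higher in muscle than in fat. The neutrophil sum was 26210 and 30200 CPM in WT and KO muscle, against 67.1 to 491.5 CPM in the fat libraries. Adipocyte markers were at 0 for all 6 genes in both libraries of HFD SAT and summed to at most 17.3 CPM elsewhere. The part of these cells in the fast-fibre differences was not tested.

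**Figure D5:**
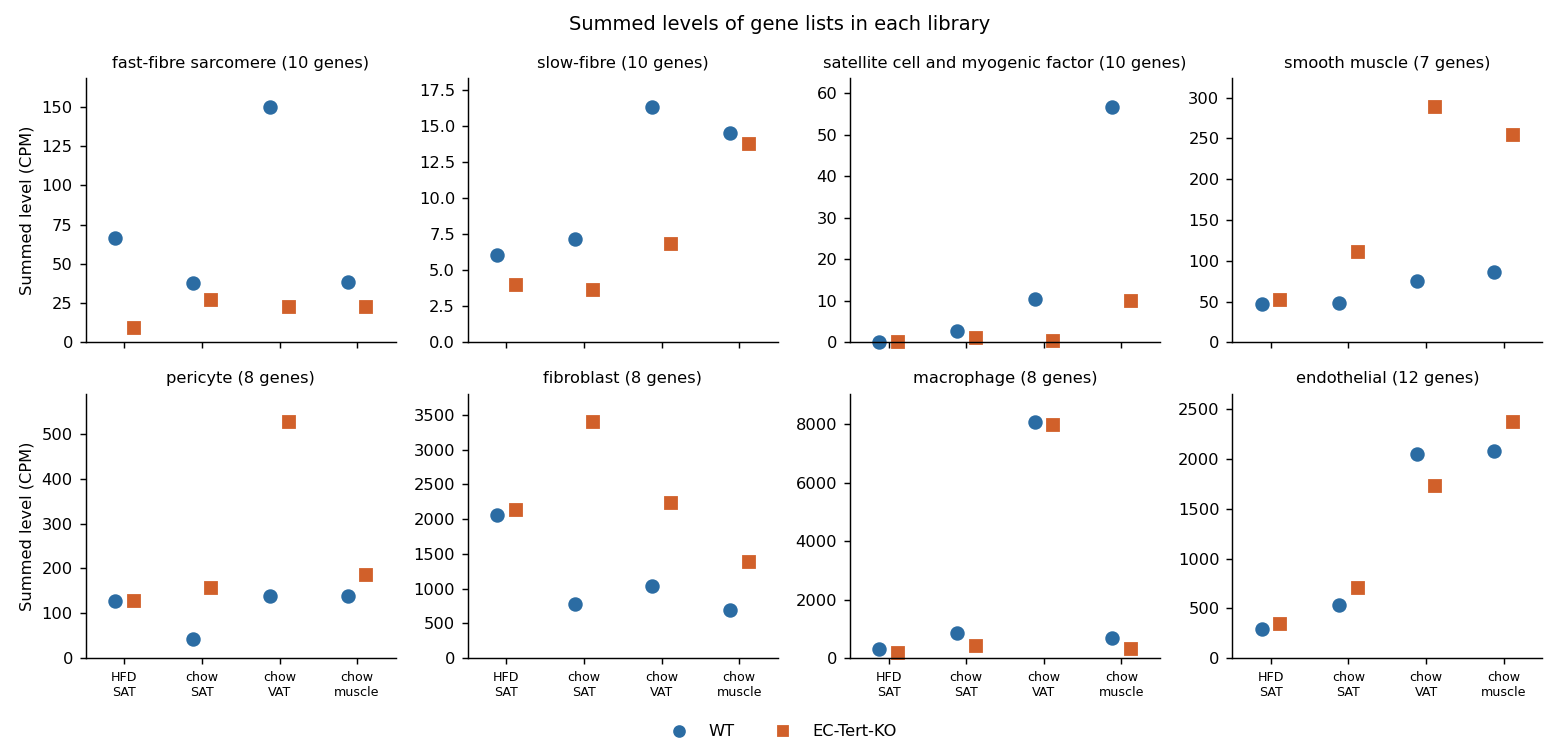
Summed level, in CPM, of the 10 fast-fibre genes and of 7 other gene lists in each library (circles WT, squares EC-*Tert*-KO; every axis starts at 0 and each panel has its own scale). The fast-fibre, slow-fibre and macrophage sums are lower in KO in all 4 pairs, and the smooth muscle and fibroblast sums are higher in KO in all 4.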

How the data were processed

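RNAseq was performed on 8 libraries of sorted GFP+ cells, grouped by the tissue, diet and genotype in the labels. The authors deposited whole-number counts per Ensembl gene, not normalized, with gene names and coordinates, and 53585 of the 54532 genes have the same coordinates in GENCODE M21. The submitters' processing notes name HISAT2 2.0.5 and GRCm38 (mm10), while the counting program, its use of strand and the read length are not given in the sources used here. The labels give an RNeasy kit and a SMARTER mRNA kit, and the methods of the study give Trizol.

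Counts were scaled by TMM in edgeR 4.0.16, and genes that averaged 10 counts or more (16971) entered its quasi-likelihood test with robust dispersions, pair and genotype as terms, two-sided, adjusted by Benjamini-Hochberg over all genes tested at 0.05. Muscle was contrasted with the mean of the 3 fat pairs, and HFD with chow in SAT, in the same fit. The standard error is the size of the log2 fold change divided by the root of F. The p-values are set against how far the difference of KO and WT varied between pairs, which differ in tissue and diet. The tissue and diet contrasts use the same spread, since there was no replicate pair of muscle or of HFD SAT. The block follows the labels, and after subtraction of the genotype means the 2 libraries of a pair correlated at 0.253 (HFD SAT), 0.0567 (chow SAT), 0.561 (VAT) and 0.517 (muscle), while libraries from different pairs ranged from −0.333 to 0.176.

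Within a pair no test was made. The ratio of KO to WT CPM used a prior count of 0.5, with an exact conditional binomial (Clopper-Pearson) 95% interval, and every fold printed without a log is the ratio with no prior count. A library at 0 counts gave a bound against 3 counts. The bound takes the WT count as exact, and the upper end of the counting interval was weaker than it for every such gene. With 1 to 3 counts the ratio is printed with its interval, in place of the bound first planned, and no fold was formed where both libraries had 3 counts or fewer.

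The 10 genes and the lists were chosen with earlier results of these data known. Also named are *Tert*, up to 3 genes of highest mean count per fibre list, and the 10 genes of highest correlation with the mean log2 CPM of the list. *Pax7*, the markers at 0, *Gm26917* and the overlapping genes were named for a value beside a result. One gene that these rules name is not reported here. Alternatives used DESeq2 1.42.0 (size factors and Wald test), other scalings, filters, prior counts and fits, summed counts, and leaving out each pair. The count of separated genes without VAT was chosen after seeing the data. The tests were tested on simulated data. Sequences are from RefSeq (GRCm38.p6).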

Additional observations from a re-analysis of the deposited data

Results flagged for a closer look

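One gene of the list differed in direction between pairs beyond its counting error. *Tnnt3*, fast troponin T, was higher in KO in chow SAT (log2 ratio 1.25) and lower in KO in HFD SAT (−1.99) and in VAT (−1.23), with 52 to 124, 42 to 90 and 77 to 119 counts in the libraries of these pairs. It was singled out because the 2 libraries moved one way in chow SAT and the opposite way in the other two pairs. With 1 library per group the difference between the pairs was not tested. *Prr33*, which overlaps *Tnnt3* on the opposite strand, had 82 to 184 counts, and the part of its reads in the *Tnnt3* counts was not tested.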

How the results depend on the processing

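With counts of 0 to 813 and 1 library per group, depth and the number of libraries limit every value here. For genotype, edgeR called 0 genes of the list under each scaling and without robust dispersions (8 tested). It also called 0 with a minimum of 50 counts (5 tested) and without each pair in turn (7 or 8 tested). Without the filter on low counts it called 2, and DESeq2's Wald test called 3. The cause was not tested. The 8 genes kept the sign of their log2 fold change for genotype in every alternative that gave a value. Without the replicate block 0 of the 8 were called as well, and the pairing changed no call of theirs. Over all genes, 1 was called for genotype, against 42 without the filter, 19 by DESeq2, 0 without the replicate block and 0 to 2 without 1 pair (0 without VAT, 2 without muscle).

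For muscle against fat, 0 genes of the list were called in any alternative, with 5 to 10 of them tested, and signs near 0 changed. With DESeq2 *Actn3* was at 0.0808 and *Ckm* at 0.0421, and with chow fat only *Myom1* was at −0.25. Without 1 fat pair *Acta1* ran from −0.49 to 0.45 (the latter without VAT), *Actn3* from −0.62 to 0.71, *Ckm* from −0.74 to 0.58 and *Mylpf* from −0.77 to 0.22 (each highest without chow SAT), and *Myom1* from −0.31 (without HFD SAT) to 1.03. The muscle pair cannot be left out of this contrast. All genes called were 623, against 1374 without the filter, 1272 by DESeq2, 275 with chow fat only and 359 to 1107 without 1 fat pair (359 without HFD SAT, 1107 without chow SAT).

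For HFD against chow, again 0 were called in every alternative. With genotype not in the fit *Actn3* was at 2.24 and *Ckm* at 0.72, and without 1 pair *Actn3* ran from −1.54 to 0.26 (the latter without VAT). All genes called were 0, against 317 without the filter, 260 by DESeq2, and 1 and 3 without VAT and without muscle. With a prior count of 5, *Ckm* in VAT was at −4.31 and the VAT median at −3.01.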
